A study of Mus musculus with 11 samples.

Results

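The genes described here encode 10 subunits of the SWI/SNF chromatin remodelling complex, in the form called esBAF that embryonic stem cells (ESCs) assemble, together with the paralogs that other cell types use more. They were chosen by symbol: Smarca4, Smarca2, Arid1a, Arid1b, Smarcc1, Smarcc2, Smarcd1, Smarcb1, Smarce1 and Phf10, which are 10 of the 54838 gene identifiers counted. For brevity all 10 are called esBAF subunits below, although Smarca2 and Smarcc2 are among those paralogs. Each symbol matched 1 Ensembl identifier on GRCm38, and all 10 passed the filter on low counts. The rule itself uses no measured value, although it was written with earlier results of these data known. RNA was sequenced from mouse E14 ESCs kept in serum replacement medium with the cytokine LIF, 36 h after the cells received a scrambled control siRNA (3 libraries), CMTR1 siRNA 1 (4 libraries) or CMTR1 siRNA 2 (4 libraries). All 3 groups are 1 unedited cell line after transient transfection, so any knockdown is short, and no group lacks the Cmtr1 gene.

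SWI/SNF complexes use the energy of ATP to slide or eject nucleosomes, which opens enhancers and promoters to transcription factors. A complex carries 1 ATPase (SMARCA4, also called BRG1, or SMARCA2, also called BRM), a core scaffold, and accessory subunits drawn from families of paralogs. ESCs are known to build the complex around BRG1, ARID1A and the SMARCC1 scaffold (BAF155), whereas BRM and SMARCC2 (BAF170) are more typical of differentiated cells. CMTR1 methylates the ribose of the first transcribed nucleotide of capped RNA, and the comparison addressed here is whether transcripts of the remodeller, and the balance between its paralogs, differed after the CMTR1 siRNAs.

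In all 3 groups the ESC paralogs dominated. Per kilobase of exon, Smarca4 was 134-fold above Smarca2 in the control libraries, Arid1a 12.3-fold above Arid1b and Smarcc1 5.65-fold above Smarcc2. No esBAF subunit passed the test with either CMTR1 siRNA: 0 of 10 with siRNA 1, where 4.67% of all tested genes were called, and 0 of 10 with siRNA 2, where 9.72% were called. With so few subunits, counts of 0 lie near those background shares. The nearest to the threshold was Smarca2, the least abundant subunit, which was higher by 0.44 on the log2 scale with siRNA 2 (95% interval 0.12 to 0.76, edgeR quasi-likelihood adjusted p = 0.0704).

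The libraries held 6738478 to 8382318 counts in genes, and 16073 genes were tested. Of these, edgeR called 435 higher and 316 lower with siRNA 1, and 991 higher and 571 lower with siRNA 2. With TMM scaling factors the split became 346 higher and 400 lower with siRNA 1, and 728 higher and 734 lower with siRNA 2. The targeted transcript Cmtr1 was at 20.3 ± 2.10 CPM (counts scaled to library size; mean ± SD, n = 3) in control, 19.2 ± 2.45 (n = 4) with siRNA 1 and 17.1 ± 1.68 (n = 4) with siRNA 2. Neither difference passed edgeR's test (a log2 fold change of −0.09 with siRNA 1, adjusted p = 0.743, and of −0.25 with siRNA 2, adjusted p = 0.144), so the RNA does not check the labels. Moreover, 36.3% of the Cmtr1 exon bases are shared with another gene on the same strand and 47.2% with one on the other strand. All 9 ESC markers examined were expressed, with a summed level of 1972 to 2082 CPM in control, 1687 to 1862 with siRNA 1 and 1771 to 1849 with siRNA 2. With each siRNA 5 of the 9 lay below control without overlap, where 6.23% of all tested genes did with siRNA 1 and 6.99% with siRNA 2. Both siRNA comparisons use the same 3 control libraries, and the labels do not say that the libraries came from separate cultures. The methods speak of biological replicates, but give fewer of them than the libraries labelled for each CMTR1 siRNA. P-values therefore measure the spread between these libraries, some of which may be technical, and n counts libraries.

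Because CMTR1 acts on the first transcribed nucleotide, the start sites of the paralog pairs are shown. Each sequence is 30 bases of the transcribed strand of GRCm38.p6 from RefSeq, with the annotated first transcribed base in capitals. Smarca4 (chr9:21616154-21616183, plus strand) starts at G and Smarca2 (chr19:26605145-26605174, plus strand) at C. Arid1a has an outer start at C (chr4:133756755-133756784, minus strand) and an inner start at A (chr4:133753971-133754000, minus strand), and Arid1b (chr17:4995059-4995088, plus strand) starts at T. Smarcc1 (chr9:110132009-110132038, plus strand) and Smarcc2 (chr10:128459221-128459250, plus strand) both start at G.
Smarca4: gggcagcggaagcagGgcaagtggagcggg
Smarca2: attcataatctagtcCtcgctccctctgtt
Arid1a outer start: atatttgccatcaggCtgccggtggcagag
Arid1a inner start: cctcctttctccggcAgcagaaagcggaga
Arid1b: gcggcctcttcctccTcggcgggccccggc
Smarcc1: ctaggaggaggaggaGgaggtggcatctgc
Smarcc2: cgggaggcggcggtcGtggcggcgggaggc

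RefSeq gave 10 start windows for 9 of the 10 genes, and 6 windows began with G, 2 with C, 1 with A and 1 with T. Over all 32851 RefSeq windows the shares were 35.6% G, 34.4% A, 16.3% C and 13.7% T. Over the 7588 windows whose promoters held at least 22 of the dinucleotide CG, the lowest count among the subunit genes, they were 51.3% G, 24.2% A, 16.7% C and 7.82% T, and 6 of 10 lies near that share of G. In the wider promoter (250 bases before the start to 50 after it) the subunit genes were rich in CG, with a median of 34 against 7 in all windows. The GC box GGGCGG, searched on both strands, was in all 10 promoters, against 35.7% of all promoters and 82.6% of the 7588 rich in CG. The ETS core CCGGAA was in 4, those of Smarca2, Arid1a (outer start), Smarcc1 and Smarcd1, against 14.9% of all promoters and 30.2% of those rich in CG. The letters TATAAA and CACGTG were in none of the 10, against 13.6% and 7.15% of all promoters, and 3.47% and 11.4% of those rich in CG. Matches of different motifs may share bases. Smarca4 and Smarca2, which differed most in level, had 33 and 29 CG in their promoters and a GC box in each.

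Levels are given as CPM per kilobase of the union of a gene's exons, as control mean ± SD (n = 3). By this length the subunits lay in separate tiers of transcript level. Smarcc1, the core scaffold, stood at 70.0 ± 1.98 and Arid1a, the DNA-binding subunit that defines the canonical complex, at 68.6 ± 3.02. Their control libraries overlapped, and Smarcc1 was above Arid1a in 8 of 11 libraries. Smarca4 followed at 62.3 ± 1.68 and Smarcd1 (BAF60A), which bridges the complex to transcription factors, at 55.4 ± 3.07. By the exon union, the order of these last genes held in all 11 libraries.

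The middle tier held Smarcb1, the core subunit that grips the nucleosome (14.95 ± 0.840), Phf10, the PHD finger subunit of the PBAF form of the complex (13.4 ± 0.271), Smarce1, an HMG-box subunit (12.6 ± 0.0727), and Smarcc2 (12.4 ± 0.282). Neighbours in this tier changed places between libraries. Smarcb1 was above Phf10 in 9 of 11 libraries, Phf10 above Smarce1 in 7 and Smarce1 above Smarcc2 in 8. Arid1b stood lower, at 5.60 ± 0.284, and Smarca2 lowest, at 0.468 ± 0.0994, and both places held in all 11 libraries. The length used matters most for Smarcb1. Its exon union spans 7930 bases and its longest coding transcript 1660, and per kilobase of that transcript Smarcb1 stood at 71.4 ± 4.01, behind only Arid1a (96.2 ± 4.23) and Smarcc1 (94.9 ± 2.69). The minor paralogs Smarcc2, Arid1b and Smarca2 were the lowest 3 with either length.

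**Figure D1:**
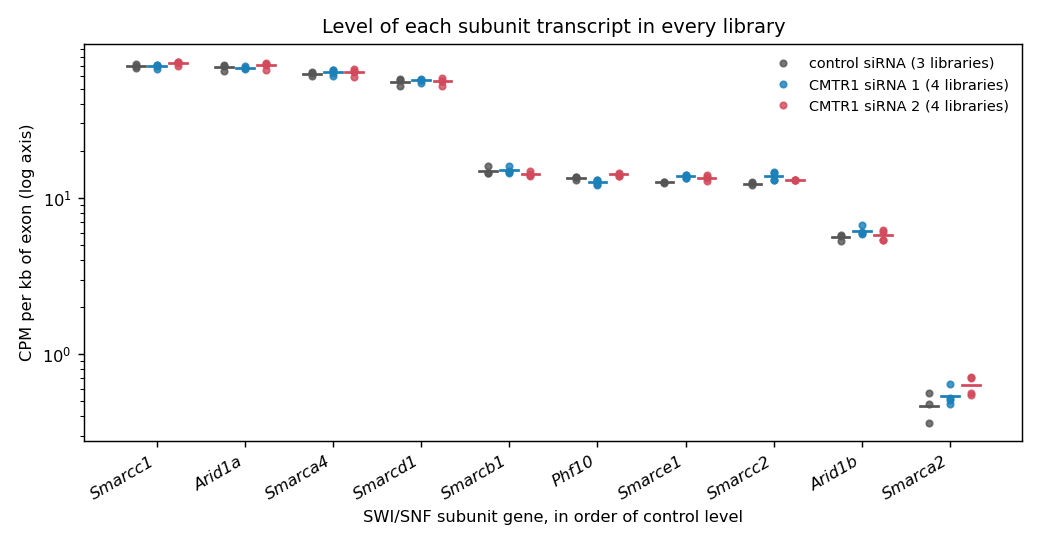
Level of each esBAF subunit transcript in every library, as CPM per kilobase of exon on a log axis, ordered by control mean. Points are libraries (3 control, 4 siRNA 1, 4 siRNA 2) and short lines are group means. Smarca2 lies near 0.468 in control, far below Smarca4 at 62.3, and the groups lie close together for each gene.

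Other paralogs of these families, fixed as a list of 20 further SWI/SNF genes, showed the same kind of spread in control. Actl6a, the actin-related subunit of proliferating cells, stood at 41.5 ± 1.44 CPM per kilobase, whereas its neuronal paralog Actl6b had 0 to 3 reads per library, which is at the counting floor. Ss18, which is shared by the canonical and non-canonical complexes, was at 18.5 ± 0.204 and Ss18l1, its neuronal counterpart, at 3.09 ± 0.312. Among the paralogs of Smarcd1, Smarcd2 was at 12.8 ± 0.853 and Smarcd3, known from heart and muscle, at 0.566 ± 0.203. Smarcd3 had 13 to 31 reads per library, and 48.2% of its exon bases overlap genes on the other strand. The double PHD finger genes ranged from Dpf2 (14.3 ± 0.391) through Dpf1 (4.08 ± 0.241) to Dpf3 (0.153 ± 0.0667). Of the 20 genes, 18 passed the filter, all but Actl6b and Dpf3.

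The ATPases were examined first, since a complex carries either SMARCA4 or SMARCA2. Smarca4 (ENSMUSG00000032187, chromosome 9, 21616169 to 21704230) was at 391, 407 and 413 CPM in control, at 427, 426, 410 and 391 with siRNA 1, and at 417, 430, 412 and 386 with siRNA 2. The groups overlapped fully. Its log2 fold change was 0.04 with siRNA 1 (95% interval −0.06 to 0.13) and 0.03 with siRNA 2 (−0.06 to 0.12), with edgeR adjusted p-values of 0.756 and 0.776.

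Smarca2 (ENSMUSG00000024921, chromosome 19, 26605050 to 26778322) had only 42 to 84 reads per library. It was at 7.999, 5.18 and 6.86 CPM in control, at 9.20, 7.48, 6.87 and 7.22 with siRNA 1, and at 8.10, 10.0, 10.2 and 7.78 with siRNA 2. The second control library was the lowest of all 11, and the highest control library overlapped the lowest of siRNA 2. The log2 fold change was 0.20 ± 0.165 (SE) with siRNA 1 (edgeR adjusted p = 0.597) and 0.44 ± 0.159 with siRNA 2 (unadjusted p = 0.00827, adjusted p = 0.0704). Without control replicate 1 the siRNA 2 value was 0.59 (adjusted p = 0.0363), and without siRNA 2 replicate 4 it was 0.51 (adjusted p = 0.0475). Without control replicate 2, the lowest library, it was 0.28 (adjusted p = 0.382), so the value and the call depend on single libraries. The siRNA 1 value was 0.04 without control replicate 2, 0.35 without control replicate 1 and 0.11 without siRNA 1 replicate 1. The spread between replicates of Smarca2 was 16.0% (pooled coefficient of variation) where counting error alone gives 13.1%, and tested genes at 5 to 10 CPM had a median of 14.3%.

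Some markers of other cell types also differed from control in the siRNA libraries. Of all tested genes, 15.5% did not overlap control with siRNA 1 and 19.4% with siRNA 2. Of 5 endoderm markers, none was separate from control with either siRNA. Of 5 mesoderm and 5 trophectoderm markers, only T and Cdx2 were separate, both lower with siRNA 2. The summed levels of these families overlapped control. Of 6 fibroblast markers, Col1a1 and Dcn were higher with siRNA 2 without overlap with control, and overlapped it with siRNA 1. Col3a1 was lower without overlap with each siRNA. Lum was at 0 in every control library and at most 0.142 CPM with siRNA 2. The fibroblast sum was 23.3 to 27.8 CPM in control, 24.7 to 28.5 with siRNA 1 and 34.2 to 39.0 with siRNA 2. Of 6 neural markers, Nes and Pax6 were higher with siRNA 1 without overlap, and with siRNA 2 Nes and Map2 were higher and Pax6 lower. The neural sum was 176 to 179 CPM in control, 185 to 213 with siRNA 1 and 191 to 221 with siRNA 2. The part of these transcripts in the Smarca2 values, and in those of the subunits below, was not tested. In bulk RNA, more cells of a type and more RNA per cell cannot be told apart.

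The ARID subunits are large and mutually exclusive in a complex. Arid1a (ENSMUSG00000007880, chromosome 4, 133679008 to 133756769) was at 748, 800 and 814 CPM in control, at 802, 777, 767 and 779 with siRNA 1, and at 826, 836, 813 and 756 with siRNA 2. It overlapped in all groups, with log2 fold changes of −0.01 (95% interval −0.10 to 0.07) and 0.04 (−0.05 to 0.12). Arid1b (ENSMUSG00000069729, chromosome 17, 4994332 to 5347656) was at 66.4, 72.9 and 72.3 CPM in control, at 84.4, 74.7, 76.1 and 73.5 with siRNA 1, and at 67.6, 76.2, 78.3 and 68.2 with siRNA 2.

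All 4 siRNA 1 libraries lay above the control libraries for Arid1b, by as little as 73.5 against 72.9 CPM, while those of siRNA 2 overlapped control. The log2 fold change with siRNA 1 was 0.13 ± 0.064 (SE; edgeR adjusted p = 0.304) and with siRNA 2 it was 0.04 (adjusted p = 0.749).

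Of the SMARCC scaffolds, Smarcc1 (ENSMUSG00000032481, chromosome 9, 110117708 to 110240178) was at 533, 564 and 547 CPM in control, at 523, 553, 556 and 549 with siRNA 1, and at 577, 580, 549 and 569 with siRNA 2. It was the steadiest of the 10 transcripts, with a highest library 1.11-fold above the lowest. Its log2 fold changes were −0.01 (95% interval −0.09 to 0.08) and 0.05 (−0.03 to 0.14). Smarcc2 (ENSMUSG00000025369, chromosome 10, 128459248 to 128490482) was at 69.8, 66.8 and 69.2 CPM in control, at 81.6, 80.1, 72.4 and 72.3 with siRNA 1, and at 71.9, 72.1, 72.3 and 71.7 with siRNA 2.

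Both siRNA groups lay above control for Smarcc2 without overlap, and the siRNA 1 libraries split into a higher and a lower pair. The log2 fold change was 0.16 ± 0.060 (SE) with siRNA 1 (unadjusted p = 0.0112, edgeR adjusted p = 0.128) and 0.07 ± 0.060 with siRNA 2 (adjusted p = 0.521).

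Among the remaining core subunits, Smarcd1 (ENSMUSG00000023018, chromosome 15, 99702129 to 99713991) ranged from 209 to 232 CPM in control, 220 to 233 with siRNA 1 and 211 to 236 with siRNA 2. Smarcb1 (ENSMUSG00000000902, chromosome 10, 75896769 to 75921617) ranged from 114 to 126, 115 to 126 and 110 to 118 CPM. Both overlapped control with either siRNA, with edgeR adjusted p-values of 0.458 or more. Of the Smarcd1 exon bases, 12.7% overlap genes on the other strand. Their fold changes were so close to 0 that the sign of Smarcb1 with siRNA 1 and of Smarcd1 with siRNA 2 turned with TMM factors.

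Smarce1 (ENSMUSG00000037935, chromosome 11, 99209047 to 99231017) was at 84.2, 84.1 and 83.3 CPM in control, at 93.2, 93.7, 89.4 and 88.7 with siRNA 1, and at 90.5, 93.4, 88.6 and 85.6 with siRNA 2. All 8 CMTR1 siRNA libraries lay above the 3 control libraries, which lay close together. The log2 fold change was 0.12 ± 0.055 (SE) with siRNA 1 (unadjusted p = 0.0329, edgeR adjusted p = 0.240) and 0.09 ± 0.055 with siRNA 2 (adjusted p = 0.310).

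Phf10 (ENSMUSG00000023883, chromosome 17, 14945009 to 14961273) lay on opposite sides of control with the siRNAs. It was at 64.2, 66.5 and 66.6 CPM in control, at 59.5, 60.3, 63.9 and 64.0 with siRNA 1, and at 68.3, 69.9, 68.2 and 71.0 with siRNA 2. The siRNA 1 libraries were all below control and the siRNA 2 libraries all above it, with no overlap. Of all tested genes, 6.23% lay below control in this way with siRNA 1 and 12.4% above it with siRNA 2. The share of genes with both was not counted. Against control neither siRNA passed the test (log2 fold change −0.09, edgeR adjusted p = 0.504, and 0.08, adjusted p = 0.453). The difference between the siRNAs was 0.16 ± 0.055 (SE; 95% interval 0.05 to 0.27, unadjusted p = 0.00489, adjusted p = 0.0585), and with a filter of over 5 CPM, which leaves fewer genes to adjust over, the adjusted p was 0.0454. The share of Phf10 exon bases that overlap a gene on the other strand is 9.57%, and the strand setting of the counting is not given in the sources used here.

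**Figure D2:**
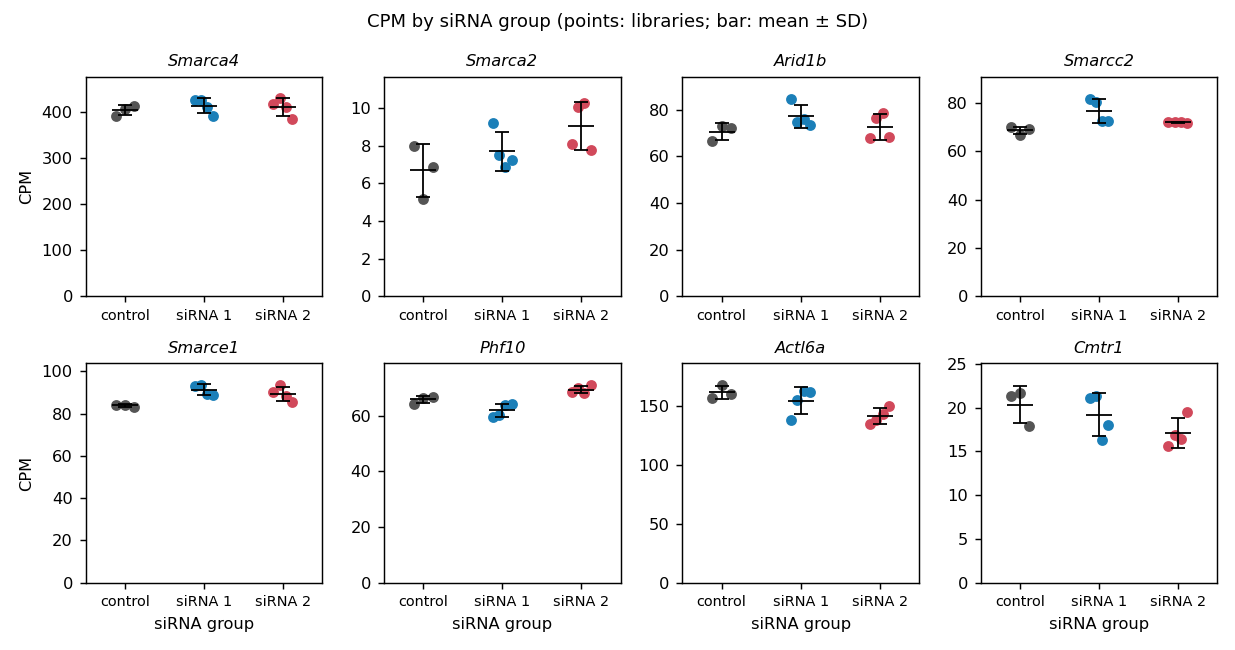
CPM of 7 SWI/SNF genes and of Cmtr1 by siRNA group. Points are libraries, and bars are the mean ± SD of 3 control, 4 siRNA 1 and 4 siRNA 2 libraries. Phf10 is below control in all siRNA 1 libraries and above it in all siRNA 2 libraries, while Smarca4 overlaps in all groups.

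Counting the subunits whose libraries did not overlap, 4 of 10 were separate from control with siRNA 1 (Arid1b, Smarcc2 and Smarce1 higher, Phf10 lower), against 15.5% of all tested genes (9.28% higher and 6.23% lower). With siRNA 2 there were 3 of 10 (Smarcc2, Smarce1 and Phf10, all higher), against 19.4% of genes (12.4% higher and 6.99% lower). Between the siRNAs Phf10 was higher and Smarcc2 lower with siRNA 2, against 11.8% of genes (6.58% higher and 5.21% lower). The median log2 fold change of the 10 subunits was 0.03 with siRNA 1 and 0.05 with siRNA 2, where the median of all tested genes was 0.02 and 0.03. With siRNA 1, 7 of 10 subunits were above 0, and 6 of 10 with TMM factors or DESeq2. With siRNA 2, 9 were above 0, 8 with TMM factors and 7 with DESeq2.

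Beside the counts of 0 called by edgeR, 2 subunits had an unadjusted p under 0.05 with siRNA 1 (Smarcc2 and Smarce1) and 1 with siRNA 2 (Smarca2). DESeq2 and edgeR's exactTest also called 0 of 10 in both comparisons. For the mean of both siRNAs against control, 0 of 10 were called where 6.91% of genes were, and 3 had an unadjusted p under 0.05. For siRNA 2 against siRNA 1, 0 of 10 were called where 7.44% of genes were, and 1 had an unadjusted p under 0.05. DESeq2 and exactTest called 0 of 10 there too. Leaving out Smarca2, the fold changes of the other 9 subunits ran from −0.09 to 0.16 with siRNA 1 and from −0.07 to 0.09 with siRNA 2 on the log2 scale, and their 95% intervals stayed between −0.21 and 0.28 and between −0.18 and 0.21. A change of larger size in one of these 9 subunits lies outside those intervals, each of which covers 1 subunit in 1 comparison. Together they do not bound all 9 subunits at the 95% level.

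**Figure D3:**
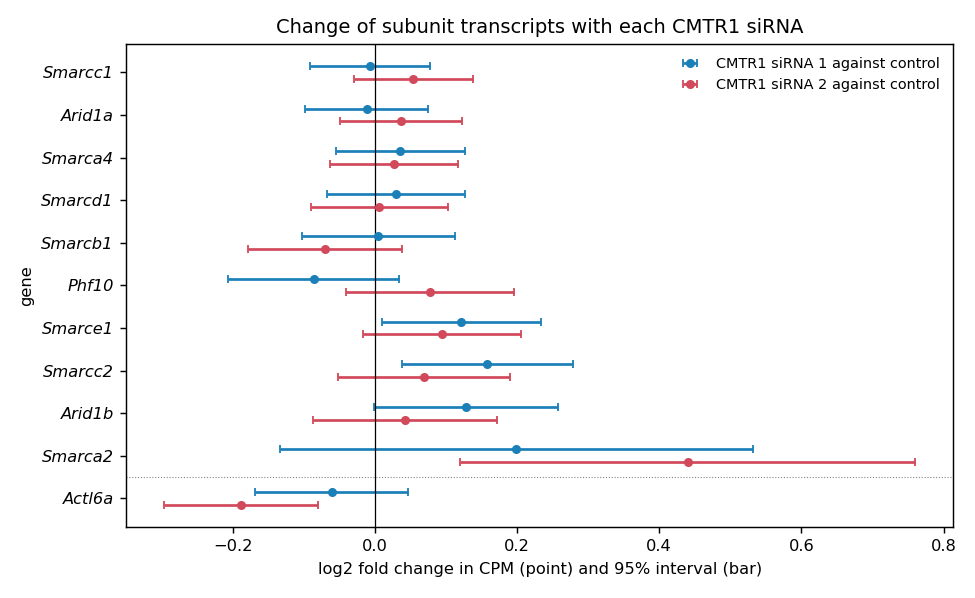
Log2 fold change of each esBAF subunit and of Actl6a with siRNA 1 and siRNA 2 against control, with 95% intervals from edgeR. Intervals of Smarca4, Arid1a, Smarcc1 and Smarcd1 are narrow and span 0. With siRNA 1 those of Smarcc2 (0.04 to 0.28) and Smarce1 (0.01 to 0.23) lie above 0. That of Smarca2 with siRNA 2 runs from 0.12 to 0.76, and Actl6a with siRNA 2 lies below 0. No esBAF subunit passed the adjusted threshold.

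Paralog balance was compared within each library, where library size cancels. Smarca2 made up 0.755% ± 0.172 (SD, n = 3) of the ATPase pair per kilobase of exon in control, 0.843% ± 0.0944 (n = 4) with siRNA 1 and 0.993% ± 0.115 (n = 4) with siRNA 2. Smarca4 was thus 107-fold to 171-fold above Smarca2 in the control libraries and 88.0-fold to 113-fold above it with siRNA 2, and these ranges overlapped. The log2 difference of the ratio was 0.42 with siRNA 2 (exact permutation p = 0.171, two-sided, adjusted over 9 tests p = 0.257) and 0.18 with siRNA 1 (exact permutation p = 0.400, adjusted p = 0.514). With single libraries left out these ran from 0.24 to 0.58 with siRNA 2 and from 0.0033 to 0.34 with siRNA 1, each lowest without control replicate 2 and highest without control replicate 1. Per kilobase of the longest coding transcript the control ratio was 56.4-fold, so its size depends on the length chosen, whereas differences between groups do not.

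Arid1b made up 7.54% ± 0.105 of the ARID pair in control, 8.25% ± 0.366 with siRNA 1 and 7.57% ± 0.468 with siRNA 2. The 4 siRNA 1 libraries lay above all 3 control libraries, the only non-overlapping case among the 9 paralog comparisons. The log2 difference was 0.14 ± 0.037 (SE), with an exact permutation p of 0.0571, which is the smallest that 3 against 4 libraries can give, and 0.206 after adjustment. With siRNA 2 the difference was 0.0031 (exact permutation p = 0.857).

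Smarcc2 made up 15.03% ± 0.645 of the SMARCC pair in control, 16.6% ± 1.20 with siRNA 1 and 15.2% ± 0.352 with siRNA 2. The log2 difference was 0.16 with siRNA 1 (exact permutation p = 0.114, adjusted p = 0.206) and 0.02 with siRNA 2 (exact permutation p = 0.800, adjusted p = 0.857). Between the siRNAs, where 4 against 4 libraries can give 0.0286 at the lowest, the log2 differences were 0.24 for Smarca2, −0.14 for Arid1b and −0.15 for Smarcc2, each over its paralog. Their exact permutation p-values were 0.114, 0.0857 and 0.0857, and 0.206 for each after adjustment. None of the 9 comparisons of paralog balance passed the threshold.

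**Figure D4:**
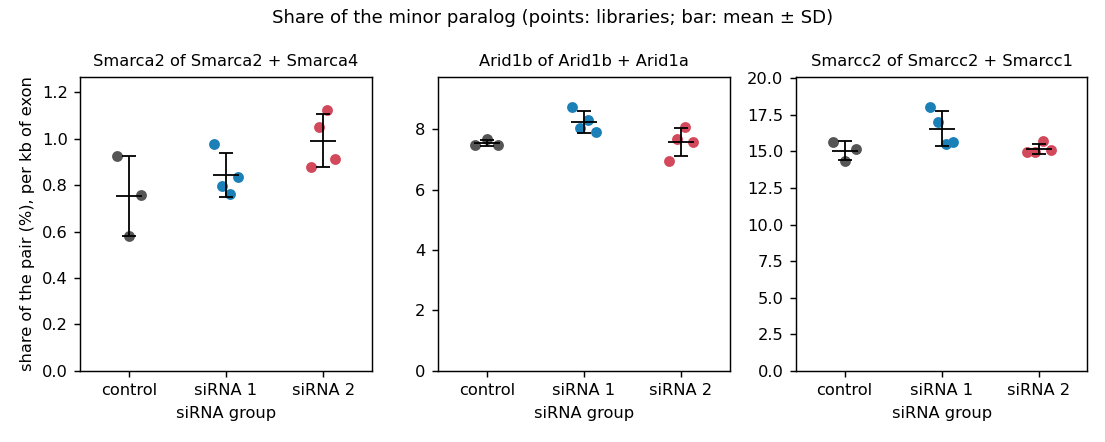
Share of the minor paralog in each pair, in percent per kilobase of exon, by siRNA group, with axes from 0. Points are libraries and bars the mean ± SD. The group mean of Arid1b is 7.54% in control and 8.25% with siRNA 1, and the ESC paralog dominates in every library. No difference shown could have passed the adjusted test with so few libraries.

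The single call lay among the other SWI/SNF genes. With siRNA 2, 1 of the 18 tested genes of this list was called, Actl6a, where 9.72% of all tested genes were. With siRNA 1, for the mean of both siRNAs and between the siRNAs 0 of 18 were called, where 4.67%, 6.91% and 7.44% of all genes were. With so few genes, these counts lie near the background shares. Unadjusted p-values under 0.05 numbered 0 with siRNA 1, 3 with siRNA 2, 2 for the mean and 4 between the siRNAs, and DESeq2 and exactTest called the same numbers as edgeR's quasi-likelihood test. Actl6a (ENSMUSG00000027671, chromosome 3, 32706298 to 32726973) was at 156, 167 and 160 CPM in control, at 138, 155, 162 and 162 with siRNA 1, and at 135, 138, 143 and 150 with siRNA 2.

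All siRNA 2 libraries of Actl6a were below control, while those of siRNA 1 overlapped it. Actl6a fell by 0.19 on the log2 scale with siRNA 2 (95% interval −0.30 to −0.08, edgeR adjusted p = 0.0186). The call was lost without control replicate 2 (−0.16, adjusted p = 0.122), control replicate 3 (−0.19, adjusted p = 0.0556) or siRNA 2 replicate 1 (−0.17, adjusted p = 0.0733). With siRNA 1 the value was −0.06 (adjusted p = 0.624), and the difference between the siRNAs was −0.13 (adjusted p = 0.117), so an effect of one siRNA alone is not shown. Without siRNA 1 replicate 1, its lowest library in that group, the difference was −0.18 (adjusted p = 0.0287). Of the Actl6a exon bases, 11.6% overlap Mrpl47 on the other strand. The part of the fibroblast and neural markers given above in this value was not tested.

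Replicate spread was small for the subunits. The median pooled coefficient of variation was 4.05% over the 10 genes, beside 4.89% over the 4470 tested genes with 50 to 1000 CPM. The highest of the 11 libraries was 1.11-fold to 1.27-fold above the lowest for 9 subunits and 1.98-fold for Smarca2. Summed over the 10 genes, the libraries held 2288 to 2430 CPM in control, 2373 to 2428 with siRNA 1 and 2339 to 2522 with siRNA 2. These ranges overlapped.

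Across the 11 libraries, the genes whose log2 CPM was most like that of Smarca4, among 8040 protein-coding genes, were Ddx54 (an RNA helicase gene; Pearson r = 0.99), Dmwd (0.92) and Slc36a1 (an amino acid transporter gene; 0.90). Among the subunits, r with Smarca4 was highest for Smarce1 (0.71) and Arid1a (0.70), followed by Arid1b (0.61) and Smarcd1 (0.56). It was 0.50 for Smarcc2, 0.45 for Smarcb1, 0.33 for Smarca2, 0.06 for Smarcc1 and −0.29 for Phf10. These values describe 11 points that share library size and group, and carry no test.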

How the data were processed

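RNA of 11 libraries was depleted of ribosomal RNA and sequenced from directional libraries. The authors deposited raw counts of reads per Ensembl gene. According to the methods, reads were trimmed (Cutadapt), aligned to GRCm38 (STAR) and cleared of duplicates (Picard). The submitters' processing notes name featureCounts, although 10 of the 11 files end in HTSeq-style summary lines, which were set aside (5314618 to 6998875 reads in no gene, 137308 to 164565 ambiguous). The file without such lines is that of siRNA 2 replicate 4. The strand setting is not given in the sources used here. Of the identifiers, 54809 matched the GENCODE M21 annotation of GRCm38, which gave symbols and exon lengths.

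Groups came from the treatment labels. Genes with over 1 CPM in at least 4 libraries were fitted with edgeR 4.0.16 (quasi-likelihood test, R 4.3.3) on 3 groups in 1 model, scaled by total counts as the methods state, and called at a Benjamini-Hochberg FDR of at most 0.05 over all 16073 genes. Every esBAF subunit is named, with each called gene of the other SWI/SNF list, the control level of each paralog, and the 3 genes most like Smarca4 (the least like is not reported here). The members and lists were chosen with earlier results of these data known. Paralog ratios (counts plus 0.5, per kilobase) were compared by two-sided exact permutation tests over libraries, adjusted over 9 tests. Intervals are 95%. On simulated counts of siRNA 1 against control (15893 genes, 200 changed) the fit called 148 genes, 8 of them unchanged, and recovered 82 of 100 changed 2-fold and 58 of 100 changed by 0.5 on the log2 scale. Alternatives were TMM factors, DESeq2 1.42.0, exactTest, other filters, 2 groups only, a replicate block and each library left out. Python 3.11.15 with pandas 2.3.3 and scipy 1.17.1 made the tables.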

Additional observations from a re-analysis of the deposited data

Results flagged for a closer look

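Phf10 differed between the siRNAs in direction. The log2 fold change of siRNA 2 less that of siRNA 1 was 0.16, every siRNA 1 library lay below the control mean and every siRNA 2 library above it, and the difference itself missed the threshold over all genes (edgeR adjusted p = 0.0585). It was between 0.15 and 0.18 with each library left out in turn. The share of all tested genes that lay on opposite sides of control in this way was not counted, and the cause was not tested.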

How the results depend on the processing

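The counts of genes called over the whole table depended on the tool: DESeq2 called 958 with siRNA 2 and 738 between the siRNAs. For the mean of both siRNAs exactTest called 693, but there it merged the libraries of both siRNAs into 1 group, which is another design. In the other comparisons exactTest called 871 with siRNA 1, 1654 with siRNA 2 and 1317 between the siRNAs. With single libraries left out, calls ran from 355 to 852 with siRNA 1, 807 to 1658 with siRNA 2, 499 to 1223 for the mean of both and 724 to 1365 between the siRNAs. For the esBAF subunits the count of calls with siRNA 2 ran from 0 to 1 (Smarca2, whose log2 fold change ran from 0.28 to 0.59, and from 0.040 to 0.35 with siRNA 1), and between the siRNAs it became 1 (Phf10) with the filter of over 5 CPM. The other SWI/SNF calls ran from 0 to 1 with siRNA 2 (Actl6a, −0.22 to −0.16) and from 0 to 1 between the siRNAs (Actl6a without siRNA 1 replicate 1, and Bicra, outside the naming rule, without siRNA 2 replicate 3), and with TMM factors 1 was called for the mean of both (Actl6a, −0.15, adjusted p = 0.0491). The cause of these moves was not tested.

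Whether replicate numbers pair the libraries is not settled. Deviations from group means correlated at 0.00954 on average over 10 pairs with the same number (−0.0574 to 0.0616) and −0.00318 over 30 other pairs. Of the 11 libraries, 5 correlated best with their own number. Correlations this small do not show a pairing and cannot exclude it. With the replicate block, 1 esBAF subunit was called with siRNA 2 (Smarca2, 0.50, adjusted p = 0.0459) and 1 other SWI/SNF gene for the mean of both (Actl6a, −0.15, adjusted p = 0.0361). The block turned Arid1a with siRNA 1 to 0.0050.

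Signs turned only for log2 values near 0: Smarca4 with siRNA 2 (−0.0017 in DESeq2), Smarcd1 with siRNA 2 (−0.018 with TMM factors, −0.023 in DESeq2) and Smarcb1 with siRNA 1 (−0.015 and −0.019). With libraries left out, siRNA 1 values ran from −0.047 to 0.013 for Arid1a, −0.027 to 0.014 for Smarcc1, −0.015 to 0.058 for Smarcd1 and −0.025 to 0.052 for Smarcb1, and siRNA 2 values from −0.039 to 0.035 for Smarcd1. The paralog ratios with siRNA 2 ran from −0.031 to 0.047 for Arid1b and from −0.024 to 0.048 for Smarcc2, and that of Smarca2 from 0.24 to 0.58 (0.0033 to 0.34 with siRNA 1). Among the 10 subunits depth limits Smarca2 most, at 42 to 84 reads per library.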
